A study of Canis lupus familiaris with 12 samples.

Results

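The tight junction genes CLDN1, CLDN16, TJP3 and CGN were followed in the canine kidney line MDCK, whose cells form a polarised epithelial sheet, during exposure to Yoda1, a chemical agonist of the stretch-activated channel Piezo1. These 4 genes are rows of the deposited expression tables whose symbol is one of those names, out of 31121 gene IDs, 13022 of them with a symbol. They were picked because earlier results from the same libraries showed them lower with Yoda1. Their differences from control at 12 h and 24 h are therefore given as descriptions, without a test. All 4 passed the filter on low counts, as did 14169 genes in all. The study holds 12 libraries in 4 groups of 3. T1 and T2 received 25 µM Yoda1 for 12 h and 24 h, and C1 and C2 are the controls of 12 h and 24 h according to the deposited sample sheet. All groups were grown in DMEM with serum and antibiotics, and no source used here says what the controls received in place of Yoda1. Libraries of a group are numbered 1 to 3, with no word on separate cultures. The p-values therefore rest on the variation among those 3 libraries, part or all of which may be technical.

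Tight junctions seal the space between neighbouring epithelial cells near their apical side. Claudins are membrane proteins that polymerise into the strands of the junction and set which ions can pass between cells. Claudin-1, encoded by CLDN1, is a sealing claudin. Claudin-16, encoded by CLDN16, is best known from the thick ascending limb of the kidney, where it takes part in the reabsorption of magnesium and calcium. On the cytoplasmic side, PDZ proteins such as ZO-1 and ZO-3 (TJP1 and TJP3) bind the tails of the claudins. Cingulin, encoded by CGN, binds ZO proteins and links the junction to actomyosin, to microtubules and to regulators of the GTPase RhoA.

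Library totals ran from 20709218 to 38889592 counts. Levels are given as CPM, which are each gene's part of the TMM-scaled library, in millionths, or, where genes are compared with each other, as TPM, which also divide by transcript length. Of the 6 epithelial markers searched, the tables name CDH1 (E-cadherin) and KRT18 (keratin 18), and their summed level was 1664 to 2006 TPM in the C1 libraries and 1322 to 1542 TPM in the T1 libraries. At 24 h it was 1809 to 1905 TPM (C2) and 1095 to 1239 TPM (T2). CDH1 fell with Yoda1 at 12 h (log2 fold change -0.56 ± 0.09 SE, edgeR adjusted p = 0.0044), where KRT18 gave -0.46 ± 0.14 (edgeR adjusted p = 0.0706). Both fell with Yoda1 at 24 h (-0.69 ± 0.09 for CDH1 and -0.71 ± 0.14 for KRT18, edgeR adjusted p = 0.000572 and 0.0051), and their part in the values below was not tested. All 7 fibroblast markers are named, with a summed level of 0.87 to 1.75 TPM over the 12 libraries, and DCN and LUM were at 0 throughout. The 4 named endothelial markers summed to 3.72 to 6.06 TPM, most of it KDR, and the 2 immune markers to 0.88 to 1.84 TPM. In such bulk samples, fewer cells of a type and less RNA per cell cannot be told apart.

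CLDN1 (ENSCAFG00845024289) was the most abundant of the 4 genes and was lower in the Yoda1 libraries of both times. Its level was 499, 447 and 493 CPM in C1 replicates 1 to 3 and 286, 263 and 285 CPM in T1. At 24 h it was 499, 443 and 489 CPM in C2 and 241, 241 and 276 CPM in T2. Every library with Yoda1 was below every control library, and the lowest control of 12 h was 1.56 times the highest T1 library. The mean went from 480 ± 28.3 CPM (SD, n = 3) in C1 to 278 ± 13 CPM in T1, a log2 fold change of -0.79 ± 0.08 (SE), which leaves 57.9% of the control level. At 24 h it went from 477 ± 29.8 to 253 ± 20.2 CPM, a log2 fold change of -0.92 ± 0.08, which leaves 53% of the control level.

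CLDN16 (ENSCAFG00845024328) had the lowest level and the largest relative difference of the 4. It was at 4.64, 2.99 and 2.77 CPM in C1 replicates 1 to 3 and at 0.768, 0.42 and 0.882 CPM in T1. At 24 h the values were 3.4, 2.52 and 3.87 CPM in C2 and 0.717, 0.705 and 0.675 CPM in T2. The groups did not overlap at either time, C1 replicate 1 stood above the other C1 libraries, and the 3 T2 libraries lay close together. These levels rest on 56 to 139 counts in a control library and on 13 to 25 counts in a library with Yoda1. The 95% exact Poisson interval of the lowest, T1 replicate 2, is 6.92 to 22.2 counts, and that of the lowest control, C1 replicate 3, is 42.3 to 72.7 counts, for counting error only. The T2 libraries hold 22, 20 and 25 counts, with a Poisson SD of 21.3%, 22.4% and 20%. Their closeness therefore does not mean that the T2 level is known precisely. The log2 fold change was -2.33 ± 0.30 at 12 h, a 5.04-fold lower level, and -2.22 ± 0.29 at 24 h, a 4.66-fold lower level. Of the 14169 tested genes, 40 had a lower log2 fold change at 12 h, and 64 at 24 h. These places are a description, since the gene was chosen from the same contrasts.

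TJP3 (ENSCAFG00845008169), which encodes the scaffold ZO-3, was lower with Yoda1 at both times. Its level was 34.2, 44.7 and 38.9 CPM in C1 and 18.7, 27.2 and 24.2 CPM in T1. At 24 h it was 48.9, 37.4 and 45.9 CPM in C2 and 17.4, 18.4 and 17.6 CPM in T2. In both C1 and T1 replicate 1 was the lowest and replicate 2 the highest, and neither pair of groups overlapped. The log2 fold change was -0.75 ± 0.14 at 12 h and -1.31 ± 0.14 at 24 h, so that 59.4% and 40.4% of the control level remained.

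CGN (ENSCAFG00845023683), which encodes cingulin, showed the smallest difference at 12 h, with little spread between libraries. It lay at 147, 156 and 149 CPM in C1 and at 125, 122 and 121 CPM in T1. At 24 h the control libraries were at 192, 176 and 192 CPM and the T2 libraries at 119, 112 and 112 CPM. The groups of each time did not overlap, and all C2 libraries were above all C1 libraries. The log2 fold change was -0.30 ± 0.06 at 12 h and -0.71 ± 0.06 at 24 h, which leaves 81.4% and 61.3% of the control level.

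At 12 h all 4 genes had their 3 treated libraries below their 3 control libraries, as did 16.3% of all tested genes, and at 24 h all 4 again, against 16.2%. Since the genes were chosen for this contrast, nothing is read from these counts.

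**Figure D1:**
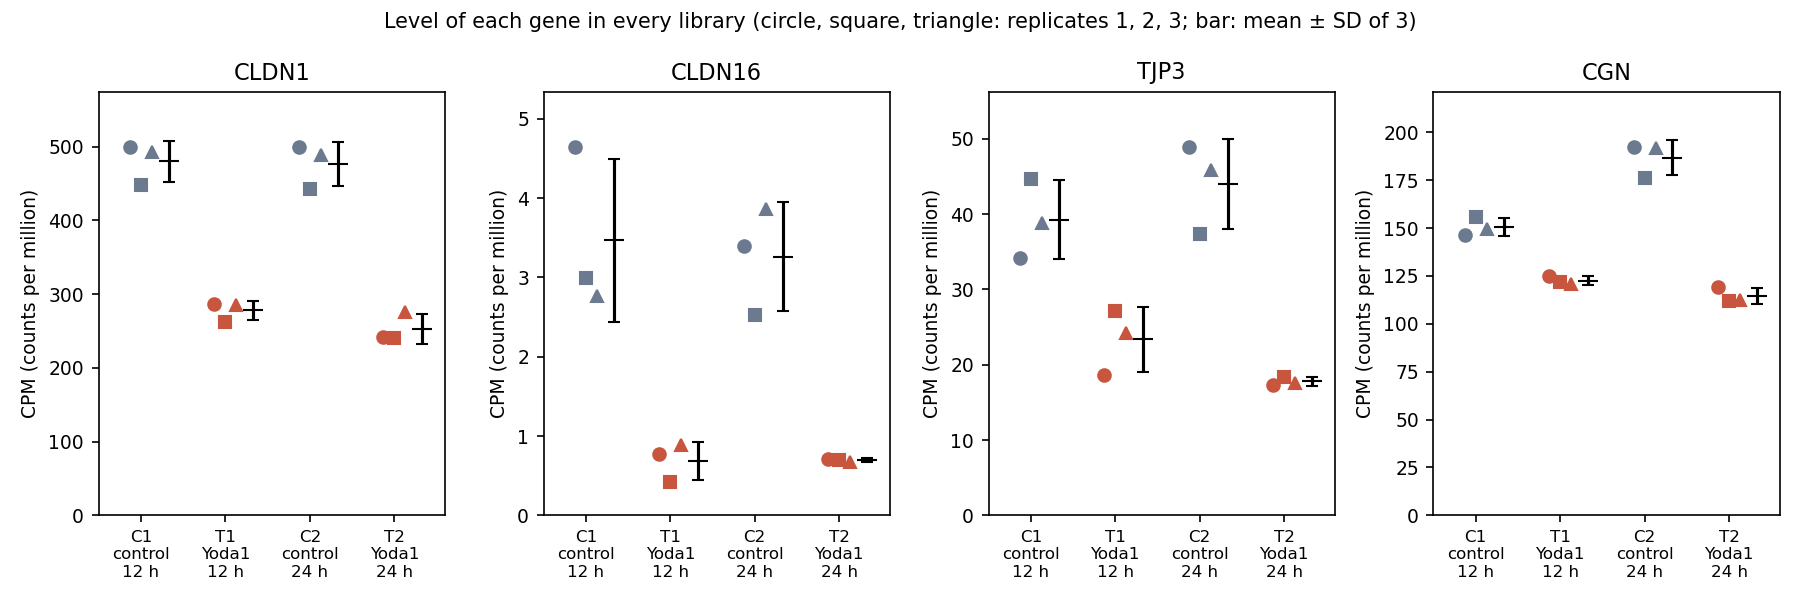
Each panel shows the CPM of 1 gene (y axis, from 0) in the 12 libraries of groups C1, T1, C2 and T2 (x axis), with the mean ± SD of 3 libraries as a black bar beside the points. In every panel the Yoda1 libraries lie below the control libraries of the same time; for CLDN16 the T2 libraries lie at 0.675 to 0.717 CPM against 2.52 to 3.87 CPM in C2.

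Compared per length, the order of the levels was the same in all libraries. CLDN1 ranged from 161 to 334 TPM over the 12 libraries, CGN from 40.2 to 69.0 TPM, TJP3 from 8.46 to 23.1 TPM and CLDN16 from 0.62 to 6.9 TPM. No range overlapped the next, so even the lowest CLDN1 library was above the highest CGN library. The length by which the deposited TPM divide the counts, read as counts per TPM relative to CLDN1, had a median of 1.87 for CGN, 1.42 for TJP3 and 0.444 for CLDN16. It stayed within 1.86 to 1.87, 1.41 to 1.42 and 0.442 to 0.45 over the 12 libraries, with no change of length between groups beyond these ranges.

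Whether the response of a gene changed between 12 h and 24 h was tested with edgeR as the difference between the log2 fold changes, a contrast made of both comparisons that served to choose the genes. None of the 4 passed, and of all tested genes 0.155% did. By unadjusted p, 2 of the 4 were under 0.05, and DESeq2 called 1, CGN. CGN had the clearest difference, with a log2 fold change lower by 0.41 at 24 h than at 12 h (-0.41 ± 0.09 SE, 95% interval -0.60 to -0.22, edgeR adjusted p = 0.0897, DESeq2 adjusted p = 0.000876). It passed with edgeR when C2 replicate 1 or C2 replicate 2 was left out (edgeR adjusted p = 0.0425 and 0.044), and otherwise its adjusted p ranged up to 0.297 without 1 library. TJP3 differed by -0.56 ± 0.20 (95% interval -0.99 to -0.12, edgeR adjusted p = 0.352). For CLDN1 the difference was -0.13 ± 0.11 (95% interval -0.37 to 0.12, edgeR adjusted p = 0.775) and for CLDN16 0.11 ± 0.41 (95% interval -0.78 to 1.01, edgeR adjusted p = 0.956). These intervals, that of CLDN16 above all, do not show that the responses of both times were equal. The sign of the CLDN16 difference turned without C1 replicate 1, C2 replicate 2 or T1 replicate 2 (-0.15, -0.04 and -0.15).

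The controls of both times were then compared with each other, as were both Yoda1 groups. Without Yoda1, CGN was higher at 24 h than at 12 h by 0.31 ± 0.06 on the log2 scale (95% interval 0.18 to 0.45), with all C2 libraries above all C1 libraries. It missed the threshold over all genes (edgeR adjusted p = 0.0846, DESeq2 adjusted p = 0.00019), where 0.162% of genes passed, and it passed without C2 replicate 2 (edgeR adjusted p = 0.0226). In the Yoda1 groups the CGN difference between times was -0.10 ± 0.06 (edgeR adjusted p = 0.686). For TJP3 the corresponding values were 0.16 ± 0.14 without Yoda1 (edgeR adjusted p = 0.69) and -0.39 ± 0.14 with it (edgeR adjusted p = 0.445). CLDN1 differed by -0.01 ± 0.08 without Yoda1 (95% interval -0.18 to 0.17, edgeR adjusted p = 0.98) and by -0.14 ± 0.08 with it (edgeR adjusted p = 0.655). CLDN16 differed by -0.09 ± 0.26 and 0.03 ± 0.32 (edgeR adjusted p = 0.933 and 0.993). Between the Yoda1 groups 0.127% of all tested genes passed, and none of the 4 did (edgeR; 1 at an unadjusted p under 0.05, TJP3, with 0 called by DESeq2 and 0 by limma voom). With the replicate block TJP3 was called lower in T2 than in T1 (-0.37 ± 0.09, edgeR adjusted p = 0.00951). These contrasts share the C1, C2, T1 and T2 libraries with those above and are not independent of them.

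**Figure D2:**
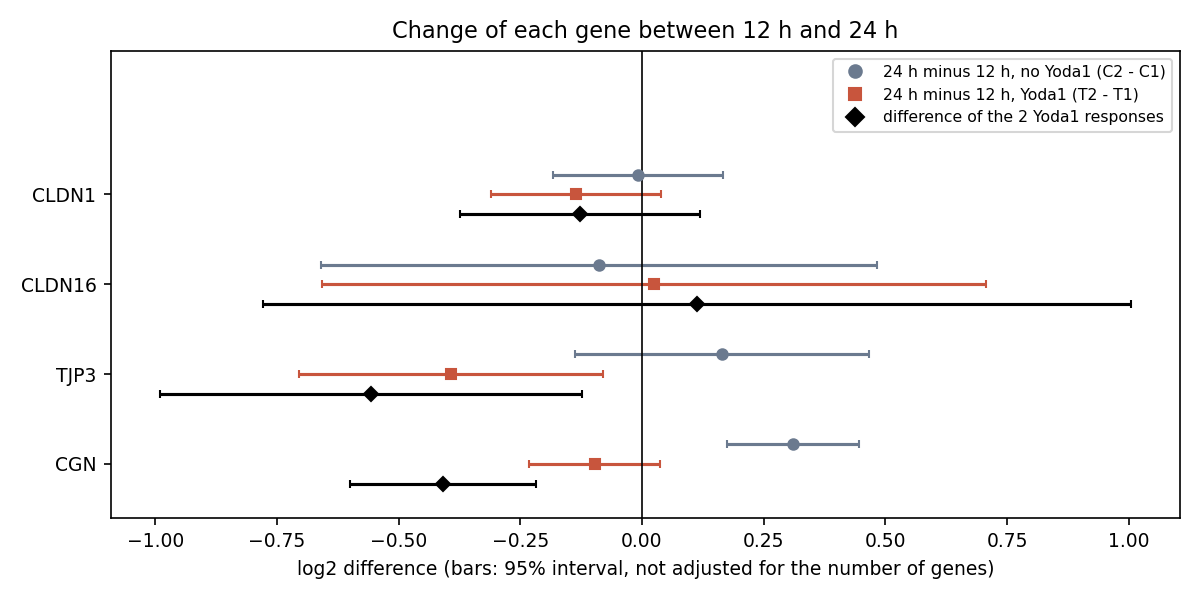
For each of the 4 genes, the x axis gives the log2 difference between 24 h and 12 h without Yoda1 (grey circles), with Yoda1 (red squares), and the difference between the Yoda1 responses of both times (black diamonds), with 95% intervals that are not adjusted for the number of genes. The CGN interval without Yoda1 runs from 0.18 to 0.45, while those of CLDN1 and CLDN16 include 0.

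Among the other claudins the direction was not shared. Of 24 claudin symbols searched, 16 were found and 6 of these were tested, CLDN1 and CLDN16 among them; 8 more, such as CLDN4 and CLDN8, were not analysed here. CLDN7 was the most abundant named claudin, ahead of CLDN1. It lay at 452 to 523 TPM in C1 and 564 to 626 TPM in T1. At 24 h the ranges, 418 to 507 TPM for C2 and 501 to 592 TPM for T2, overlapped. In CPM the CLDN7 libraries overlapped at both times, with 166 to 206 CPM in C1 and 193 to 234 CPM in T1. The log2 fold change of CLDN7 was 0.20 ± 0.11 at 12 h (edgeR adjusted p = 0.314) and 0.25 ± 0.11 at 24 h (edgeR adjusted p = 0.133). With the replicate number as a block, the 12 h value was 0.19 ± 0.05 and passed the test (edgeR adjusted p = 0.0063).

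CLDN3, another sealing claudin, fell at both times. It was at 76, 99.3 and 93.1 CPM in C1 replicates 1 to 3 against 45.8, 70.9 and 61.6 CPM in T1, and at 86.2, 65 and 74.4 CPM in C2 against 46.2, 49.7 and 51.4 CPM in T2. The highest Yoda1 library was below the lowest control library at both times. The log2 fold change was -0.59 ± 0.15 at 12 h and -0.61 ± 0.15 at 24 h (edgeR adjusted p = 0.0352 and 0.0149). At 12 h the call was lost without any 1 of C1 replicates 2 and 3, T1 replicates 1 and 3 and T2 replicates 2 and 3 (edgeR adjusted p up to 0.13), and at 24 h without T2 replicate 1 or 2 (up to 0.0534) and with the replicate block (0.0583).

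CLDN12, a claudin whose tail lacks the usual motif for binding PDZ domains, rose at both times. It was at 75.3, 63.1 and 73.9 CPM in C1 against 96, 81.1 and 97.9 CPM in T1, and at 74.2, 71.5 and 65 CPM in C2 against 97.3, 94.3 and 97.7 CPM in T2. The groups did not overlap at either time. The log2 fold change was 0.37 ± 0.09 at 12 h and 0.46 ± 0.09 at 24 h (edgeR adjusted p = 0.029 and 0.005). The 12 h call was lost without any 1 of the C1 replicates or without T1 replicate 1 or 3 (edgeR adjusted p up to 0.136), and its 24 h call was not lost when any 1 library was left out but was lost with the replicate block (edgeR adjusted p = 0.0585).

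The summed level of the 16 named claudins was 981 ± 45.7 TPM in C1, 928 ± 34.9 in T1, 936 ± 19.2 in C2 and 860 ± 54.3 in T2 (SD, n = 3). Of this sum CLDN1 made up 31.9% ± 3.34 in C1, 20.6% ± 2.12 in T1, 34% ± 1.79 in C2 and 20.2% ± 1.54 in T2. CLDN7 made up 50.6% ± 2.7, 64.5% ± 1.44, 48.9% ± 4.48 and 65.1% ± 2.4 in the same order. CLDN16 never exceeded 0.736% of the sum in a library, and its share was at most 0.144% in a library with Yoda1. These shares cover only the claudins with a symbol.

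**Figure D3:**
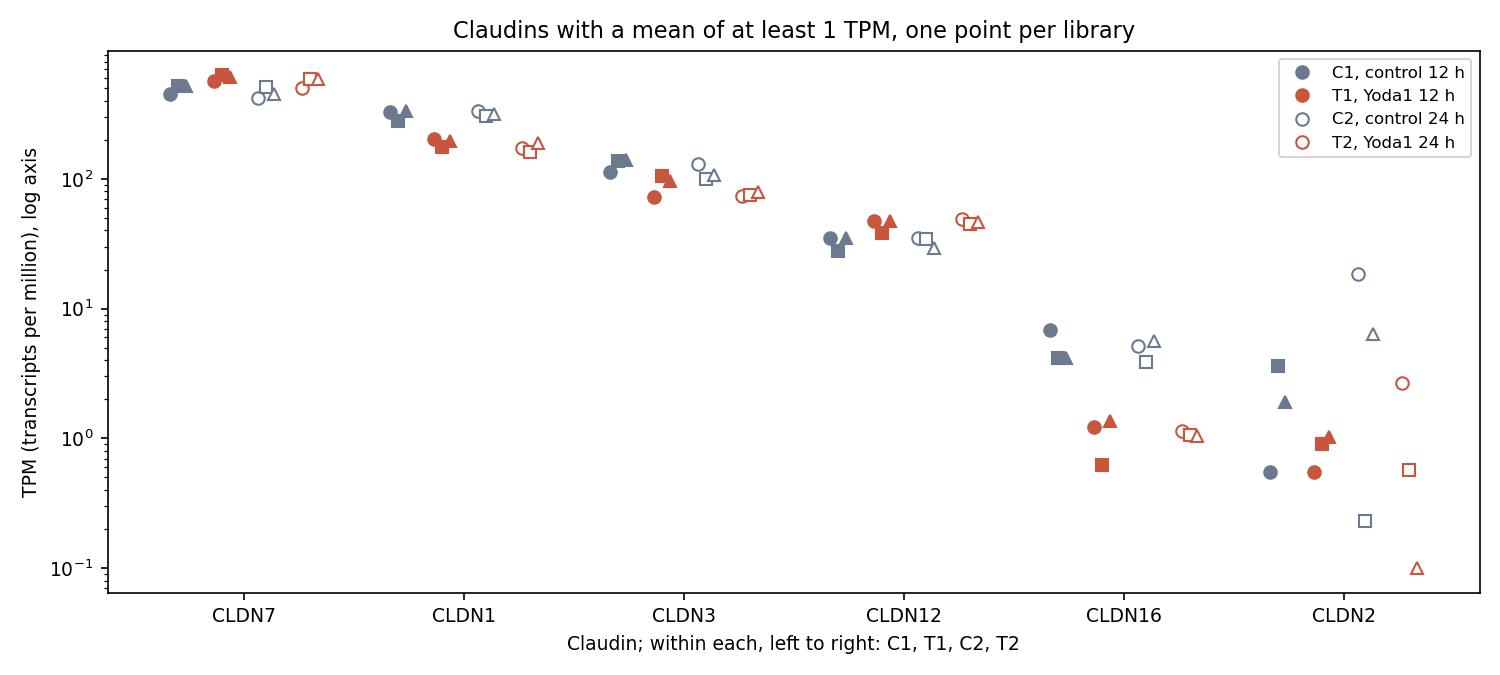
The y axis is a log axis of TPM and each point is 1 library; within each claudin the groups run C1, T1, C2, T2 from left to right, with filled points for 12 h and open points for 24 h. CLDN1, CLDN3 and CLDN16 lie lower in the red Yoda1 groups, CLDN12 lies higher, CLDN7 lies above CLDN1 in every group, and CLDN2 is spread from 0.1 to 18.4 TPM.

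Of 3 other scaffolds tested, none passed at 12 h (edgeR; 0 at an unadjusted p under 0.05, 0 called by DESeq2 and 0 by limma voom) and 1, CGNL1, fell at 24 h. TJP1, which encodes ZO-1, was at 127 ± 19.9, 149 ± 14.6, 132 ± 20.1 and 135 ± 13 CPM in C1, T1, C2 and T2, and passed no test except, higher at 12 h, with the replicate block (0.23 ± 0.07, edgeR adjusted p = 0.0399). CGNL1, which encodes paracingulin, was at 6.59 ± 0.712 CPM in C1 and 5.5 ± 0.365 in T1. It fell at 24 h from 10.5 ± 3.84 to 6.76 ± 0.149 CPM (-0.64 ± 0.20, edgeR adjusted p = 0.0427), a call lost in 16 of 20 alternative fits. The C2 libraries were spread, at 14.8, 7.42 and 9.38 CPM for replicates 1 to 3, and the T2 mean was near that of C1. PATJ, a scaffold of the Crumbs complex, was at 106 ± 9.28 CPM in C1 and 123 ± 10.8 in T1 (0.21 ± 0.15, edgeR adjusted p = 0.451; 0.21 ± 0.05 with the replicate block, edgeR adjusted p = 0.0056).

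OCLN, which encodes occludin, was at 67.5 ± 2.64 CPM in C1, 72.1 ± 4.22 in T1, 85.9 ± 7.06 in C2 and 69.6 ± 1.63 in T2. Like CGN, its mean was highest in C2, and it fell with Yoda1 at 24 h (-0.30 ± 0.08, edgeR adjusted p = 0.0162), a call lost without T2 replicate 2 or 3 (edgeR adjusted p up to 0.0727), in a fit of 6 libraries only, with the replicate block (edgeR adjusted p = 0.137) and with log2(TPM + 1). MARVELD2, which encodes tricellulin, was at 9.01 ± 1.58, 12.7 ± 0.928, 12.4 ± 3.4 and 12.3 ± 1.49 CPM in C1, T1, C2 and T2. Its 12 h value of 0.49 ± 0.19 missed the threshold (edgeR adjusted p = 0.128) and passed with the replicate block (0.50 ± 0.10, edgeR adjusted p = 0.002) or without C2 replicate 1 (edgeR adjusted p = 0.0373), and also in a fit of the 6 libraries of 12 h alone. The immunoglobulin-type receptors CXADR and IGSF5, at means of 255 to 273 and 49.0 to 56.8 CPM per group, passed at neither time.

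Over these lists, 12 tight junction genes other than the 4 were tested. At 12 h 1 rose (CLDN12) and 1 fell (CLDN3), where 3.01% of all tested genes rose and 3.97% fell. With the replicate block 5 rose and 2 fell at 12 h. The count of genes that rose at 12 h was 0 without C1 replicate 1, 2 or 3 or without T1 replicate 1 or 3, and 2 without C2 replicate 1. The count that fell was 0 without C1 replicate 2 or 3, T1 replicate 1 or 3, or T2 replicate 2 or 3. In the fit with all libraries 3 of the 12 had an unadjusted p under 0.05, and DESeq2 and limma voom each called 2. At 24 h 1 rose (CLDN12) and 3 fell (CLDN3, OCLN and CGNL1), where 8.96% of all genes rose and 9.61% fell. The 3 became 1, 0 and 1 without T2 replicates 1, 2 and 3, and 1 both in a fit of 6 libraries only and with log2(TPM + 1). With the replicate block 0 rose and 0 fell at 24 h. With all libraries 7 of the 12 had an unadjusted edgeR p under 0.05 at 24 h, and DESeq2 called 4 and limma voom 3. The median log2 fold change of the 12 was 0.01 at 12 h and -0.06 at 24 h, beside 0.01 and -0.01 over all tested genes; its sign turned at 12 h without C1 replicate 2 or T1 replicate 1 and at 24 h with log2(TPM + 1). None of the 12 passed the test of the difference between times (edgeR; 1 at an unadjusted p under 0.05, 1 called by DESeq2 and 0 by limma voom).

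**Figure D4:**
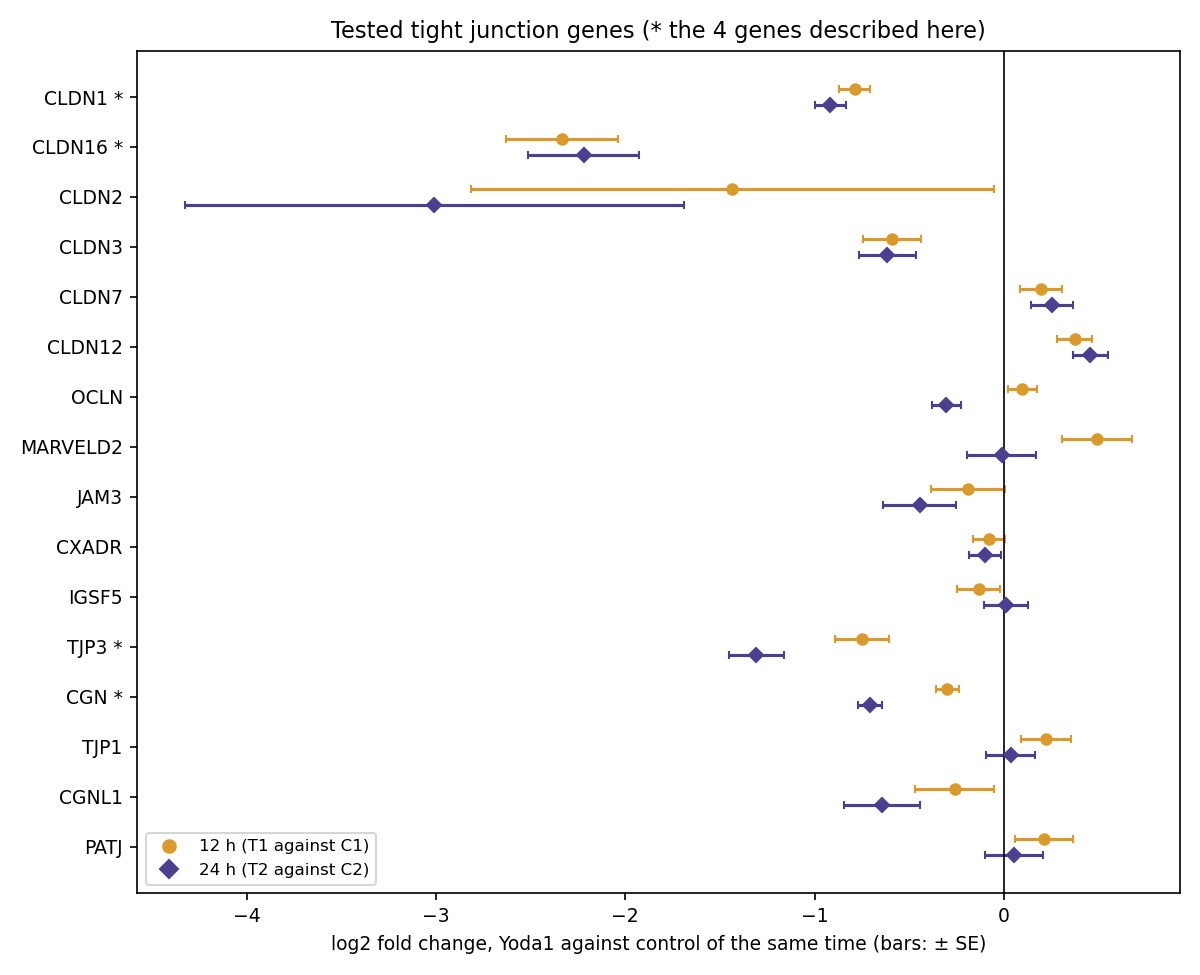
The x axis gives the log2 fold change of Yoda1 against the control of the same time, with bars of ± 1 SE, for 16 tested tight junction genes (y axis); circles are 12 h and diamonds 24 h, and a star marks the 4 genes described here. CLDN16 lies at -2.33 and -2.22 with narrower bars than CLDN2, and CLDN7 and CLDN12 lie to the right of 0 at both times.

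Factors known to act on epithelial junction genes were read from a list of 23 symbols, 13 of them tested. At 12 h 1 fell, where 3.97% of all tested genes did, and none rose (edgeR; 6 at an unadjusted p under 0.05, 3 called by DESeq2 and 1 by limma voom). This was GRHL3, a grainyhead-like factor (-0.55 ± 0.12, edgeR adjusted p = 0.0168). At 24 h 5 fell and 1 rose, where 9.61% of all tested genes fell and 8.96% rose. The fall was led by TFAP2A (-1.18 ± 0.17, edgeR adjusted p = 0.001) and OVOL1 (-0.87 ± 0.14, edgeR adjusted p = 0.0014). Both of these 24 h calls were lost with the replicate block (edgeR adjusted p = 0.0535 and 0.0523). GRHL3 fell at this time too (-0.44 ± 0.12, edgeR adjusted p = 0.021), and so did GRHL2 (-0.46 ± 0.11, edgeR adjusted p = 0.0154), a call lost in 6 of 20 alternative fits, and PPARG (-0.37 ± 0.09, edgeR adjusted p = 0.0148). KLF5 was the 1 that rose (0.35 ± 0.09, edgeR adjusted p = 0.0211). For PPARG and KLF5 no alternative fits are given here. The median log2 fold change of the 13 was -0.18 at 12 h and -0.30 at 24 h, beside 0.01 and -0.01 over all tested genes. The GRHL3 call was lost at 12 h without C1 replicate 1 or 3 or T1 replicate 3 and with log2(TPM + 1). At 24 h it was lost without C2 replicate 1 or any 1 of the T2 replicates, with the replicate block and with log2(TPM + 1).

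CLDN16 was also set beside genes of the thick ascending limb and of magnesium handling. Of 12 symbols 9 were found, and 7 of these had a mean under 1 TPM. UMOD (uromodulin) was at 0.02 TPM at most, CASR (the calcium-sensing receptor) at 0.05 TPM at most, and CLDN19, the usual partner of claudin-16, at 0 to 0.25 TPM. TRPM7 (a magnesium-permeable channel) was at 7.75 to 12.4 TPM and CNNM2 (a magnesium transport protein) at 12.9 to 26.1 TPM. No tested gene of this list passed at either time (edgeR; 1 of 4 at an unadjusted p under 0.05 at 12 h and 2 at 24 h, and 0 called by DESeq2 and by limma voom).

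In the gene order of the RefSeq annotation of UU_Cfam_GSD_1.0, which may differ from the build of the tables, CLDN1 and CLDN16 are next to each other among protein-coding genes. The 3 protein-coding genes on either side of each of the 4 genes were looked up, 18 genes in all, of which 10 were tested. None of the 10 was called lower at 12 h or at 24 h (edgeR; at each time 2 were lower at an unadjusted p under 0.05, and DESeq2 called 1 lower and limma voom 0). At 12 h 1 rose. Over all tested genes 3.97% fell and 3.01% rose at 12 h, and 9.61% fell and 8.96% rose at 24 h, so counts this small are near the background. P3H2, a collagen prolyl hydroxylase beside CLDN1, was at 45.5 ± 4.04 CPM in C1, 25 ± 0.456 in T1, 56.3 ± 30.3 in C2 and 32.1 ± 2.25 in T2. Its lowest C1 library (42.05 CPM) was above its highest T1 library (25.26 CPM), while C2 and T2 overlapped. The P3H2 log2 fold changes of -0.87 ± 0.30 and -0.81 ± 0.30 missed the threshold (edgeR adjusted p = 0.116 and 0.0832). TP63, the next gene beyond P3H2, had a mean of 0.476 TPM. It gave -1.23 ± 0.45 and -1.26 ± 0.45 and missed the threshold too (edgeR adjusted p = 0.115 and 0.0682). IL1RAP, the interleukin-1 receptor accessory protein on the far side of CLDN16, gave -0.18 ± 0.15 and -0.27 ± 0.15 (edgeR adjusted p = 0.542 and 0.253). The 1 that rose was TUFT1, next to CGN (0.26 ± 0.07 at 12 h, edgeR adjusted p = 0.0466), a call lost in 12 of 20 alternative fits.

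Finally, the tested genes with a symbol and a mean of at least 5 CPM (6422 genes) were ranked by the Pearson correlation of their log2 CPM with each of the 4 genes over the 12 libraries. The points share libraries, and all patterns contain the split between Yoda1 and control, so the correlations are descriptions. CLDN16 was most like its neighbour CLDN1 (r = 0.966), ahead of the Ras-family GTPase MRAS (0.965) and the sulfatase ARSK (0.958). CLDN1 was most like NUCB2, a calcium-binding protein (0.973), CD47, an integrin-associated membrane protein (0.972), and PDIA3, a disulfide isomerase of the endoplasmic reticulum (0.972). TJP3 was most like the integrin subunit ITGB5 (0.965), the calcium-permeable channel TRPV4 (0.964) and LMAN2L, a lectin of the secretory pathway (0.962). CGN was most like the tetraspanin TSPAN14 (0.983), the zinc finger gene ZNF362 (0.981) and the dynein light chain DNAL4 (0.973). These last 3 shared with CGN the higher mean in C2 than in C1, such as 47.4 ± 1.82 against 38.9 ± 1.76 CPM for TSPAN14. Among the 4 genes themselves r was 0.857 to 0.966, but they were chosen because all were lower with Yoda1 in these libraries. Apart from CLDN1 for CLDN16, the other genes of the 4 ranked only from 48 to 149 in these lists.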

How the data were processed

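Poly(A) RNA of MDCK cells was sequenced as paired-end reads of stranded libraries, per the labels' protocols. The authors deposited expected counts per gene, not normalized, and TPM scaled to one total per library; the tools are, per the submitters' processing notes, RSEM 1.3.3, STAR 2.7.10b and fastp 0.23.4. Genome build and annotation: not given in the sources used here. A deposited sample sheet (unit: other) gave the controls' times. Expected counts were rounded, filtered with filterByExpr, scaled by TMM and fitted with edgeR 4.0.16 (R 4.3.3; robust quasi-likelihood, 4 group means, 12 libraries), with Benjamini-Hochberg adjustment over 14169 genes and calls at adjusted p under 0.05. Each SE was obtained from a log2 fold change and its F statistic (|log2 fold change| / √F). The procedure was tested on simulated data. The common biological coefficient of variation was 13.3%, which with 3 libraries limits the precision.

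The 4 genes, the lists and the alternatives were chosen with earlier results of these data known. Named genes are the 4, tight junction genes called at either time or with a mean of at least 10 TPM, up to 4 called genes of each other list, and 3 most similar genes per member. KLF5, PPARG and the chromosomal neighbours stand outside that rule and were chosen after values were seen, as was CLDN2. Some genes of these lists are not reported here, and no count or median includes them. Alternatives were RLE or library-size scaling, no filter, DESeq2 1.42.0, limma 3.58.1 (voom, and limma-trend on log2(TPM + 1)), 6 libraries only, a replicate block, and leaving out each library.

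Same-numbered libraries of C1 and T1 deviated together from their group means (r = 0.153, 0.283 and 0.115 for replicates 1, 2 and 3). At 12 h the numbers may therefore pair samples, a pairing no label states. The main fit and its 12 h p-values leave such a pairing out, and only the replicate block uses it. Same-numbered libraries of C2 and T2 did not deviate together (0.0631, -0.0767 and -0.0841), nor did those of C1 and C2 (-0.00831, -0.19 and -0.205). Those of T1 and T2 did for replicates 1 and 2 (0.23 and 0.172) but not for replicate 3 (-0.0805).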

Additional observations from a re-analysis of the deposited data

How the results depend on the processing

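The 4 genes were lower with Yoda1 in all 160 alternative values of their comparisons with control. These values refit the libraries that served to choose the genes, so their shared sign is no independent support. No test is read from these comparisons. Still, at 12 h CGN missed the threshold of 0.05 in 5 of 20 alternatives and TJP3 in 1 of 20. With log2(TPM + 1), which understates changes of low genes, CLDN16 gave -1.54 at 12 h and -1.49 at 24 h. CLDN1 and CGN, at far higher TPM, gave -0.71 and -0.22 at 12 h in that fit. By library size only they gave -0.75 and -0.26 at 12 h. That fit leaves out the TMM factors, which were 0.976 to 0.979 in the C1 libraries and 0.999 to 1.01 in the T1 libraries. The cause of these CLDN1 and CGN values was not tested. Leaving out 1 library gave -0.84 to -0.75 (CLDN1), -2.54 to -2.07 (CLDN16), -0.87 to -0.61 (TJP3) and -0.32 to -0.27 (CGN) at 12 h, and -0.98 to -0.88, -2.38 to -2.08, -1.42 to -1.23 and -0.75 to -0.68 at 24 h.

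The difference between times ranged without 1 library from -0.45 to -0.39 for CGN and from -0.15 to 0.32 for CLDN16, whose sign turned without C1 replicate 1 (-0.15), C2 replicate 2 (-0.040) or T1 replicate 2 (-0.15). DESeq2 called it for CGN (-0.40). For C2 against C1, CGN ranged from 0.29 to 0.35 and was called by DESeq2 (0.31). There CLDN1 ranged from -0.057 to 0.043 and turned positive by library size only (0.020), with log2(TPM + 1) (0.027) and without C1 replicate 1 (0.021), C1 replicate 3 (0.011) or C2 replicate 2 (0.043). CLDN16 ranged from -0.23 to 0.18 and turned positive without C1 replicate 1 (0.18) or C2 replicate 2 (0.07). For T2 against T1, CLDN16 turned negative without T1 replicate 2 (-0.24; range -0.24 to 0.23).

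With the replicate block, TJP3 was called lower in T2 than in T1 (-0.37, edgeR adjusted p = 0.00951). Of the 12 other tight junction genes 5 rose and 2 fell at 12 h, and 0 rose and 0 fell at 24 h. These edgeR fits had 2 residual degrees of freedom. In the comparisons between times, the block changed no other call of the 4 genes. With only 6 libraries 2 of the 12 rose at 12 h and 1 fell at 24 h, and with log2(TPM + 1) 1 fell at 24 h and their median there was 0.0019. Without 1 library their median at 12 h ranged from -0.025 to 0.059 and was negative without C1 replicate 2 (-0.023) or T1 replicate 1 (-0.025). Without 1 library the counts at 12 h were 0 to 2 (higher) and 0 to 1 (lower), and at 24 h 1 to 1 and 0 to 4. The cause of these changes was not tested. Counts of 13 to 25 limit CLDN16 with Yoda1.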

Other observations

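CLDN2, which encodes a claudin that forms cation-permeable pores and which was singled out after its values were seen, varied widely between the libraries of C1, of C2 and of T2. It was at 0.55, 3.62 and 1.92 TPM in C1 replicates 1 to 3, at 18.4, 0.23 and 6.43 TPM in C2, at 0.55, 0.9 and 1.03 TPM in T1 and at 2.68, 0.57 and 0.1 TPM in T2. Control and Yoda1 libraries overlapped at both times. Its log2 fold changes of -1.43 ± 1.38 at 12 h and -3.01 ± 1.32 at 24 h missed the threshold (edgeR adjusted p = 0.588 and 0.147), and the 12 h fit with the replicate block called it (-1.25 ± 0.36, edgeR adjusted p = 0.0182).

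Of 10 tested IDs of the polarity complexes none changed at 12 h (edgeR; 2 at an unadjusted p under 0.05, 0 called by DESeq2 and 0 by limma voom), and at 24 h 1 rose and 1 fell, where 8.96% of all tested genes rose and 9.61% fell. Such counts are near the shares of all genes. Of 2 IDs with the symbol LIN7C, 1 rose from 107 ± 3.62 to 154 ± 5.65 CPM (0.52 ± 0.10, edgeR adjusted p = 0.0037). The other LIN7C ID was called at neither time. LIN7B fell from 7.3 ± 0.528 to 5.37 ± 0.457 CPM (-0.44 ± 0.13, edgeR adjusted p = 0.0278), a call lost in 7 of 20 alternatives. Among 10 junction signalling partners MYL9, a myosin regulatory light chain, fell at 12 h (-1.08 ± 0.28, edgeR adjusted p = 0.0396) and at 24 h (-1.14 ± 0.29, edgeR adjusted p = 0.0171), calls lost in 8 and 6 of 20 alternatives. At 12 h 3.97% of all tested genes fell. Of the 10 partners 4 had an unadjusted edgeR p under 0.05 at 12 h, with 4 called by DESeq2 and 1 by limma voom. At 24 h these counts were 6, 4 and 3. ARHGEF18, a RhoA activator at junctions, rose at 24 h (0.28 ± 0.09, edgeR adjusted p = 0.0444), a call lost in 13 of 20. SPINT2, a membrane inhibitor of serine proteases, fell at 24 h (-0.28 ± 0.09, edgeR adjusted p = 0.0444), also lost in 13 of 20, while the other 2 tested genes of its list, PRSS8 and SPINT1, passed at neither time. VWF, an endothelial marker under 1 TPM, fell at 24 h (-0.94 ± 0.29, edgeR adjusted p = 0.0393), a call lost in 12 of 20.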
